A study of Homo sapiens with 8 samples.

Results

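The single-exon protein-coding genes were those whose every protein-coding transcript in GENCODE release 44, given in GRCh37 (hg19) coordinates, has 1 exon, and which lie at least 3 kb from any other protein-coding gene. Histone genes were left out. Of 19820 protein-coding genes, 1066 had single-exon transcripts alone, and 414 of these lay closer than 3 kb to another protein-coding gene. A further 19 were histone genes and 1 carried an older histone symbol, which left 632 genes. RNA polymerase II (RNAPII) was mapped by ChIP-seq in MDA-MB-453, an established human breast cancer cell line. The assay pulls down RNAPII with the DNA it is bound to, and sequencing of that DNA shows where RNAPII was. Cells had received vehicle or 600 nM of the CDK9 inhibitor CDDD11-8 (D11-8 in the sample labels) for 4 h. Each treatment had 2 ChIP libraries, which the authors describe as independent passages of cells. All 4 libraries therefore came from 1 cell line, with no second CDK9 inhibitor and no other dose or time.

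Genes without introns need no splicing, and many encode short-lived regulators, signalling proteins or members of large receptor families. On most genes RNAPII pauses shortly after the transcription start site (TSS), and P-TEFb, the complex of CDK9 with a cyclin T partner, releases it into elongation. At the 3′ end, a polyadenylation signal in the nascent RNA directs cleavage, after which RNAPII runs on past the transcription end site (TES) before it leaves the DNA.

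The data were lists of regions that the authors' peak caller marked as enriched over the paired chromatin input, 1 list per library. A gene had a promoter peak where a peak overlapped the 300 bp either side of its TSS by at least 1 bp. Gene coverage is the percentage of bases from TSS to TES inside a peak, and downstream coverage is the same percentage over the 5 kb after the TES. Coverage shows how far along the DNA enrichment was called, not how much RNAPII was there. The lists held 78306 and 57493 peaks for vehicle replicates 1 and 2, and 25897 and 21842 for CDDD11-8 replicates 1 and 2. No read totals accompany them, and the depth of each library is therefore unknown beyond the minimum that the authors state for every sample. Treatments were compared with 1 value per library by an exact two-sided permutation test, whose smallest p with 2 libraries against 2 is 0.33, so that no treatment difference could pass a test at any usual threshold. Differences between single-exon and multi-exon genes were tested by an exact two-sided sign-flip permutation over the 4 libraries, whose smallest p is 0.125.

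The TES is where gene coverage ends and downstream coverage begins, and the 3′ ends of 8 genes described further on are shown for this reason. Each is a stretch of 30 bases from the GRCh37 genome within the last 50 bases of the exon, 5′ to 3′ on the coding strand, with the polyadenylation hexamer (AATAAA or ATTAAA) nearest to the TES in capitals.
HEXIM1, chr17:43229437-43229466, plus strand: taaaaattatATTAAAcatttattttgaaa
ITPRIPL2, chr16:19132922-19132951, plus strand: ttgctttattAATAAAggaacttgtagaaa
SOX12, chr20:310839-310868, plus strand: ttattcctAATAAAcatcttgcaacccaaa
UTP3, chr4:71556238-71556267, plus strand: tgttAATAAAtgggcttaatgttaacatgg
SDHAF1, chr19:36487185-36487214, plus strand: acaaagggAATAAAattggggatatgtcta
JUN, chr1:59246463-59246492, minus strand: cttgtcacAATAAAtgtattcaaataccaa
RHOB, chr2:20649171-20649200, plus strand: aaatATTAAAagactatgatgatgacattt
IRF2BP1, chr19:46386869-46386898, minus strand: cttcAATAAAccgaaagatgggtttttttt
Genes whose promoter carried a peak in each of the 4 libraries are called occupied. Among the occupied single-exon genes, 64.4% had AATAAA in the last 50 bases and 15.1% had ATTAAA without AATAAA. The corresponding shares were 65.2% and 12.9% in multi-exon genes of similar length with promoter peaks, and 58.6% and 13.1% over all protein-coding genes. In the single-exon genes without a promoter peak, 33.6% had AATAAA. EID2, IER5, CEBPA, SF3B5, FZD8 and PCBP1 had neither hexamer in this window, which says only that these letters do not occur there.

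The promoter sequence before the TSS is shown for 4 genes whose promoter peaks are described below, as the 150 bases that end just before the TSS. The capitals mark the TATA box motif TATAAA, the CCAAT box motif CCAAT and the GC box motif GGGCGG, each searched on both strands. None of these motifs contains another.
HEXIM1, chr17:43225692-43225841, plus strand: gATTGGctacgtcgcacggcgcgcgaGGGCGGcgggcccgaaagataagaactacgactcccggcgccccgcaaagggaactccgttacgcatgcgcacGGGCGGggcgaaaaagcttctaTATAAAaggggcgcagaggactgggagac
RHOB, chr2:20646685-20646834, plus strand: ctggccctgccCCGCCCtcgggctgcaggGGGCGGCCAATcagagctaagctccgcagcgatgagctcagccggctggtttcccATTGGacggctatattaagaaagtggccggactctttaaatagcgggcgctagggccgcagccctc
JUN, chr1:59249720-59249869, minus strand: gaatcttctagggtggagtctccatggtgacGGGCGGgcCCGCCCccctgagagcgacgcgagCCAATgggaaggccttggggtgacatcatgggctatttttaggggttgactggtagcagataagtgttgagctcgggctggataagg
EID2, chr19:40030802-40030951, minus strand: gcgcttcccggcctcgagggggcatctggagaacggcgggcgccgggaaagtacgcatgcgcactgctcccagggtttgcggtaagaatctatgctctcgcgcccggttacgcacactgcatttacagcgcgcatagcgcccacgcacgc
HEXIM1 held all 3 motifs in this stretch, RHOB and JUN held CCAAT and GGGCGG, and EID2 held none of them. Over the 300 bases from 250 before to 50 after the TSS, TATAAA occurred in 13.7% of the occupied single-exon genes. It occurred in 11.2% of similar-length multi-exon genes, 30.1% of the single-exon genes without a promoter peak and 10.0% of all protein-coding genes. For CCAAT the shares were 42.5%, 46.6%, 38.7% and 35.2% in the same order, and for GGGCGG they were 74.0%, 73.6%, 18.0% and 57.03%. The median GC content was 65.3% in the single-exon genes with a promoter peak, 64.3% in the multi-exon genes of similar length and 45.5% in the single-exon genes without a peak. The occupied single-exon genes therefore had the sequence makeup of occupied multi-exon genes rather than that of the unoccupied single-exon genes, as a description without a test.

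RNAPII occupied the promoters of few single-exon genes. Of the 632 genes, 73 had a promoter peak in all 4 libraries, 21 in 1 to 3 libraries and 538 in none. The promoter was occupied at 77 and 80 genes with vehicle and at 91 and 82 with CDDD11-8. As shares of all 632, these were 12.2% and 12.7% with vehicle (mean 12.4% ± 0.336, SD, n = 2) and 14.4% and 13.0% with CDDD11-8 (13.7% ± 1.01, SD, n = 2), without overlap between treatments (exact permutation p = 0.33). Multi-exon genes of similar length, the 5 nearest in log length to each single-exon gene, had shares of 13.6%, 13.8%, 16.7% and 15.9% in the same order of libraries. The single-exon share was lower in each library, by 1.11 to 2.94 percentage points (exact sign-flip permutation p = 0.125). This order held in 12 of 16 alternatives and was not a stable one. On average over the 4 libraries, the single-exon share was 1.45 points above the multi-exon share at 3 kb from any annotated gene. It was 1.52 points above in genes of at least 1 kb, and 0.693 points above with no protein-coding gene in or just beyond the 5 kb after the TES. Leaving olfactory receptors, taste receptors, interferons and keratin-associated proteins out of the single-exon genes alone gave 2.30 points above. These 4 lists held no promoter peak, so a higher single-exon share followed from that choice. Outside the 94 genes with any promoter peak, RNAPII peaks were nearly absent from the gene itself. The first 300 bp of these genes held no peak by the choice, and their median length was 1071 bp. Only 1 to 3 of the 538 genes had a peak anywhere between TSS and TES in a given library. The lack of a called peak does not show that RNAPII was absent.

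Which single-exon genes were occupied differed sharply between the gene lists, which were chosen with earlier results of these data known. None of 154 olfactory receptor genes had a promoter peak in any library, which allows a share of up to 1.95% by the limit of 3 counts, and none of 69 keratin-associated protein genes had one (up to 4.35%). The 16 type I interferons, 11 POU, homeobox and bHLH factors, 6 bitter taste receptors, 3 potassium channels, 2 protocadherins and 2 leucine-rich repeat membrane proteins were also empty. At the other end, 4 of 5 immediate-early genes, RHOB, JUN and IER5 among them, were occupied in all 4 libraries, as were both C/EBP factors. Small GTPases had 3 of 5 occupied (RHOB, RAP2B and RAB6C), zinc finger factors 3 of 6 (ZCCHC3, ZXDB and ZXDA), heat shock genes 1 of 2 (HSPA1B), and RNA and DNA binding proteins 4 of 10 (HNRNPA0, PURB, UTP3 and SF3B5). Of 8 SOX factors, SOX12 and SOX4 were occupied, and of 10 forkhead genes only FOXD2. In the ubiquitin and F-box list, 3 of 30 genes were occupied (KLHL9, KBTBD6 and KBTBD7). Non-olfactory G protein-coupled receptors had 5 of 35, namely the Wnt receptors FZD1, FZD2, FZD7 and FZD8 and the lactate receptor HCAR1. The list of cancer testis and germline genes, drawn up by gene symbol, had 2 of 33 (MAGEF1 and MAGEH1). Whether these 2 genes are specific to testis or tumours was not examined. No single-exon gene fell in the list of glycosyltransferases.

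**Figure D1:**
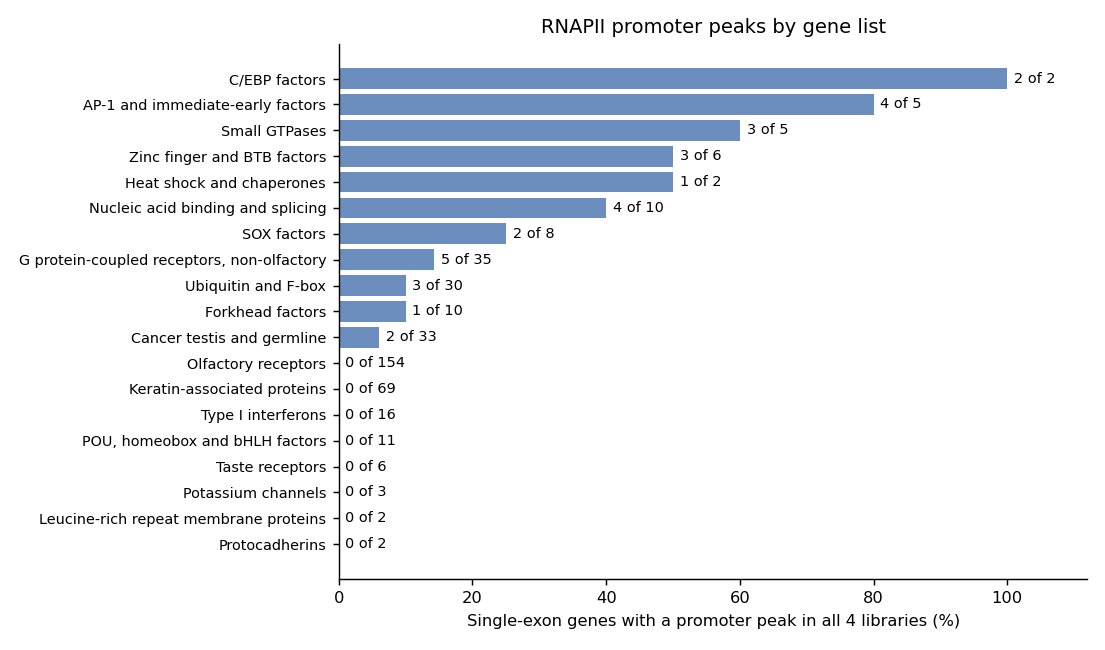
Share of single-exon genes with an RNAPII promoter peak in all 4 libraries (horizontal axis, percent) for each gene list with at least 1 member (vertical axis), with the number occupied of the number in the list beside each bar. Both C/EBP factors and 4 of 5 immediate-early genes were occupied, against 0 of 154 olfactory receptors. The lists were chosen with earlier results of these data known.

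In the 73 occupied genes, RNAPII enrichment extended farther before the TSS and less far after the TES with CDDD11-8. A promoter peak in all 4 libraries was required of these genes, so that high coverage around the TSS follows from the choice. Coverage of the 5 kb before the TSS was 31.0% and 34.0% with vehicle (32.5% ± 2.09, SD, n = 2) and 48.1% and 40.9% with CDDD11-8 (44.5% ± 5.14, SD, n = 2), with no overlap (exact permutation p = 0.33). The gap was widest from 1 to 2 kb before the TSS, where 41.2% and 43.6% of bases were covered with vehicle and 71.8% and 64.5% with CDDD11-8. From 4 to 5 kb before the TSS the treatments overlapped, with 8.24% and 10.4% against 9.73% and 5.42%.

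Gene coverage was 67.1% and 72.3% with vehicle (69.7% ± 3.62, SD, n = 2) and 76.0% and 73.3% with CDDD11-8 (74.6% ± 1.95, SD, n = 2). The groups did not overlap (exact permutation p = 0.33), although vehicle replicate 2 and CDDD11-8 replicate 2 lay close together. Of the 4 equal segments of the gene, the second carried the widest separation, 68.7% and 77.1% against 82.7% and 81.7%. In the last segment the libraries overlapped, at 50.3% and 53.0% with vehicle and 56.2% and 51.4% with CDDD11-8.

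Past the TES the order turned. Downstream coverage was 29.99% and 28.98% with vehicle (29.5% ± 0.712, SD, n = 2) and 20.5% and 15.7% with CDDD11-8 (18.1% ± 3.40, SD, n = 2), 11.4 percentage points lower (exact permutation p = 0.33). Within the first 1 kb after the TES the values were 43.5% and 47.0% against 42.4% and 37.6%. From 2 to 3 kb after it they were 29.7% and 29.1% against 16.5% and 9.39%, the widest gap of the 5 intervals. With lists cut to equal numbers of peaks, the difference in downstream coverage was -6.50 points, and over all 632 genes, most of them empty, it was -1.40 points. The number of genes with no covered base in the 5 kb after the TES was 33 and 31 with vehicle and 35 and 39 with CDDD11-8.

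**Figure D2:**
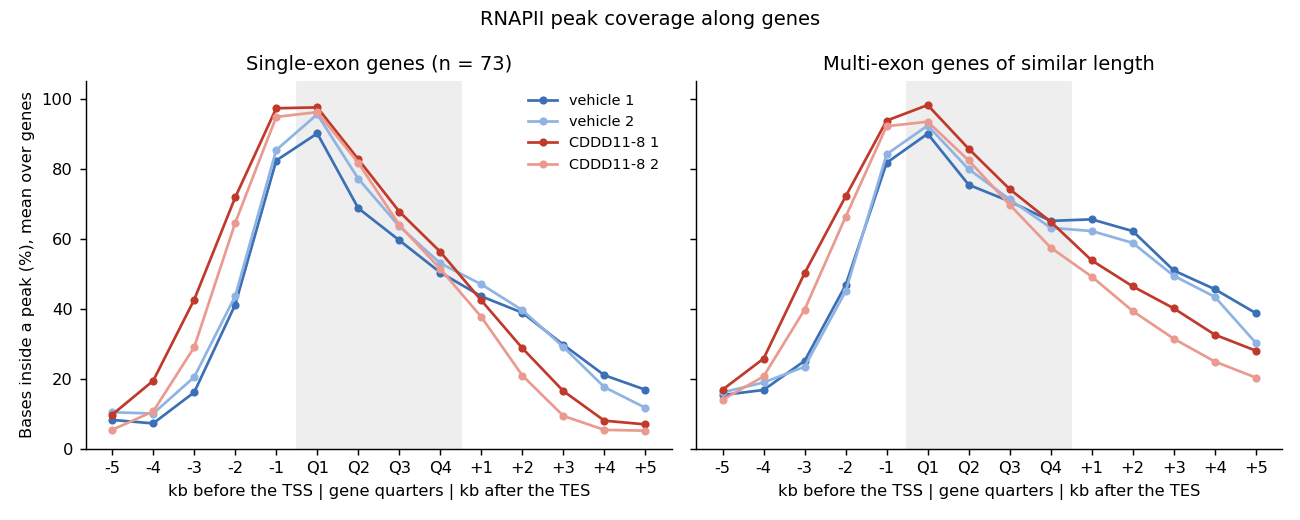
Mean percentage of bases inside an RNAPII peak (vertical axis) in each 1 kb before the TSS, each of 4 equal segments of the gene (shaded, Q1 to Q4) and each 1 kb after the TES (horizontal axis), for the 73 single-exon genes (left) and for multi-exon genes of similar length (right), with 1 line per library. The CDDD11-8 lines lie above the vehicle lines from 1 to 3 kb before the TSS and below them from 1 to 5 kb after the TES in both panels, and the vehicle lines run lower after the TES in single-exon genes.

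The promoter peak itself was wider with CDDD11-8 as called. Its median width was 3204 and 3392 bp with vehicle and 5237 and 4636 bp with CDDD11-8. It began 1284 and 1236 bp before the TSS with vehicle (median) and 2224 and 1839 bp before it with CDDD11-8, and it ended 1859 and 2412 bp after the TSS against 2967 and 2704 bp. Peaks that also covered the base after the TES made up 35.62% and 36.99% with vehicle and 49.3% and 43.8% with CDDD11-8. None of these groups overlapped (exact permutation p = 0.33 for each). Vehicle peaks were more often in pieces, with 59 and 58 of the 73 genes covered by a single peak, against 69 and 68 with CDDD11-8. When peaks closer than 1 kb were joined, the mean of the 2 median widths was 5223.5 bp with vehicle and 5169 bp with CDDD11-8, the difference in the downstream end was -307 bp, and the share reaching past the TES was 48.6% in both treatments. The larger width at the 3′ side was thus a property of unjoined peaks, whereas joining left upstream coverage 11.9 points higher with CDDD11-8.

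Averaged over the 73 genes, single-exon genes had less RNAPII enrichment past the TES than multi-exon genes of similar length in each of the 4 libraries, an order that did not hold among genes under 2 kb. The multi-exon genes used ran from 914 to 9554 bp and the single-exon genes from 270 to 9540 bp, so the shortest had no close match. Downstream coverage in the multi-exon genes was 52.6% and 48.8% with vehicle and 40.2% and 33.0% with CDDD11-8. The single-exon value lay 22.6 and 19.8 percentage points below it with vehicle and 19.7 and 17.3 points below it with CDDD11-8 (exact sign-flip permutation p = 0.125, lower in 4 of 4 libraries). A protein-coding gene began or ended within the 5 kb after the TES in 14.6% of the 178 multi-exon genes used and at 1 of the 73 single-exon genes. With no protein-coding gene there or within 1 kb beyond, the mean difference over the 4 libraries was -14.8 points, with multi-exon genes nearest in both length and promoter peak percentile it was -14.0 points, and with both conditions it was -11.4 points (exact sign-flip permutation p = 0.125 each). The promoter peak percentile is the rank of a gene's promoter peak fold enrichment among all promoter peaks of its library. That fold enrichment is the highest in the whole called peak, which can reach far beyond the promoter. The mean percentile over single-exon genes was 51.1, 58.0, 51.1 and 50.5 in the 4 libraries, against 58.0, 57.1, 53.3 and 50.8 in the multi-exon genes.

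Averaged in the same way, gene coverage was lower in single-exon genes too, with differences of -8.11 and -4.34 points in vehicle and -4.66 and -2.45 points in CDDD11-8 (exact sign-flip permutation p = 0.125). This difference was smaller under the same 2 conditions, at -1.88 points on average (exact sign-flip permutation p = 0.25). In percentage points, the effect of CDDD11-8 on downstream coverage was 2.71 smaller in size in single-exon than in multi-exon genes (exact permutation p = 0.33). The starting levels differed, with vehicle means of 29.5% in single-exon and 50.7% in multi-exon genes. The CDDD11-8 means were 18.1% and 36.6%, and the change relative to the starting level was not compared. Over all 632 genes, whatever their promoter peaks, the difference of effects had the opposite sign, at -0.571 points. The strongest summit is the point of highest fold enrichment from the promoter to 5 kb after the TES. It lay at the promoter in 64.4% and 76.4% of single-exon genes with vehicle and 77.8% and 80.8% with CDDD11-8. After the TES it lay in 15.1% and 5.56% with vehicle and 5.56% and 2.74% with CDDD11-8, against 28.5% and 14.2% and then 4.38% and 3.84% in multi-exon genes. The single-exon share after the TES was thus below the multi-exon share in 3 of 4 libraries, and its treatment groups met at 5.56% (exact permutation p = 0.67). The 2 vehicle libraries differed more from each other here than the 2 CDDD11-8 libraries did.

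The values of the 73 genes varied with gene length. Lengths ran from 270 to 9540 bp with a median of 2688 bp, and the 3 classes used here were set after the values were seen. The 19 genes under 2 kb were nearly full in every library, with gene coverage of 92.6% and 93.5% with vehicle and 97.9% and 98.5% with CDDD11-8, and 15 of them were at 100% in all 4 libraries. Their downstream coverage was 53.2% and 52.5% with vehicle and 43.5% and 33.9% with CDDD11-8. Among 30 genes from 2 to 4 kb, gene coverage was 65.9% and 72.7% against 81.5% and 76.3%, and downstream coverage was 25.4% and 26.7% against 19.7% and 15.6%. In the 24 genes from 4 to 10 kb, gene coverage overlapped between treatments, at 48.5% and 54.9% against 51.9% and 49.4%, and downstream coverage was 17.4% and 13.2% against 3.34% and 1.49%. The difference in gene coverage of these longest genes was -1.05 points, and its sign turned without vehicle replicate 2 (2.14 points) and without CDDD11-8 replicate 2 (0.242 points). Downstream coverage was lower with CDDD11-8 in each class, with no overlap (exact permutation p = 0.33 for each). With equal numbers of peaks per list, the difference went from -14.2 to -7.73 points under 2 kb and from -8.42 to -2.92 points at 2 to 4 kb, and at 3 kb from any annotated gene it went from -12.9 to -6.71 points at 4 to 10 kb, where 7 genes remained.

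The comparison with multi-exon genes also varied with length, here against all occupied multi-exon genes of the same class. Genes within a class were not matched in length. From the shortest class to the longest, median lengths were 1455, 2643 and 5131.5 bp in single-exon genes. In multi-exon genes they were 1616, 3225 and 7105 bp. Under 2 kb, the 22 multi-exon genes had gene coverage of 87.6% and 85.8% with vehicle and 90.7% and 86.3% with CDDD11-8, below the single-exon genes in all 4 libraries. Their downstream coverage was 50.5% and 45.8% against 41.3% and 34.2%, below the single-exon genes in 3 of 4 libraries. At 2 to 4 kb the 89 multi-exon genes were above the single-exon genes in both measures and all libraries, with downstream coverage of 52.5% and 49.9% against 40.7% and 34.7%. At 4 to 10 kb the 313 multi-exon genes had gene coverage of 53.995% and 52.2% against 51.5% and 45.1%, below the single-exon genes in 3 of 4 libraries, and downstream coverage of 42.6% and 39.2% against 23.2% and 17.5%, above them in all 4.

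Counted gene by gene, gene coverage was higher in both CDDD11-8 than in both vehicle libraries at 22 of the 73 genes (30.1%), against 31.3% of the 3526 occupied genes that lay at least 3 kb from other protein-coding genes. It was lower in both at 8 genes (11.0%), against 35.2% of all such genes. Downstream coverage was higher at 4 genes (5.48%, background 2.81%) and lower at 20 (27.4%, background 43.8%). The background holds mostly far longer genes, and multi-exon genes of similar length had shares of 19.5% and 9.86% for gene coverage and 11.5% and 37.8% for downstream coverage. Upstream coverage was higher at 51 genes (69.9%, background 70.3%) and lower at 2 (2.74%, background 7.4%), namely CEBPA and IRF2BP1. The promoter peak was wider at 37 genes (50.7%, background 70.8%) and narrower at 10 (13.7%, background 7.23%), against 53.4% and 20.5% of multi-exon genes of similar length. Without vehicle replicate 2, 35 genes had higher gene coverage and 7 higher downstream coverage, and without vehicle replicate 1, 15 had lower gene coverage and 32 lower downstream coverage. Without CDDD11-8 replicate 1, 14 had lower gene coverage. With a library left out, fewer values must lie apart, so these counts could hardly fall. The counts with every library are descriptions of 2 against 2 libraries, and the shares for upstream coverage and for higher gene coverage were near their backgrounds.

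HEXIM1, the protein that holds P-TEFb inactive in a complex with a small nuclear RNA, had one of the highest promoter peak percentiles. It also had one of the clearest differences after its TES. The gene occupies chr17:43225842-43229466 on the plus strand, with its exon of 3625 bp. Its promoter peak spanned 19688 and 21532 bp with vehicle and 9176 and 9862 bp with CDDD11-8. The gene itself was covered to 100% in all 4 libraries, and the 5 kb after its TES were covered to 100% and 100% with vehicle and to 47.9% and 56.1% with CDDD11-8. In the CDDD11-8 libraries the unbroken peak ended 3708 and 5663 bp after the TSS, and shorter separate peaks followed within the next 5 kb. A last peak then ran from 8587 to 15949 bp and from 8218 to 15673 bp after the TSS, where a single vehicle peak had continued to 16346 and 15955 bp. The neighbouring gene HEXIM2 begins 8600 bp after the HEXIM1 TES, so that the end of this enrichment lies in it. The promoter peak percentile of HEXIM1 was 99.6 and 99.3 with vehicle and 89.4 and 84.9 with CDDD11-8. It was taken over the whole called peak, which reached into HEXIM2 with vehicle and ended before it with CDDD11-8. The treatments were therefore ranked over unlike stretches, and a change at the promoter itself was not tested.

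ITPRIPL2, a membrane protein related to a regulator of the inositol trisphosphate receptor, had the most negative difference of the 73 genes in both measures. Over its 7666 bp exon at chr16:19125286-19132951 (plus strand), gene coverage was 100% and 96.8% with vehicle and 47.5% and 50.8% with CDDD11-8. Downstream coverage was 100% and 73.5% with vehicle and listed at 0% in both CDDD11-8 libraries. With CDDD11-8 a single peak ran from the promoter to 3641 and 3893 bp after the TSS, so that the 3′ part of the gene and everything after it lay outside peaks. Upstream coverage was 42.9% and 36.4% against 48.7% and 42.8%.

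Both SOX factors, HMG box transcription factors of cell fate, were lower after the TES. SOX12 (chr20:306196-310868, plus strand, 4673 bp) was covered to 100% in all libraries, with downstream coverage of 98.6% and 77.2% with vehicle and 30.04% and 4.96% with CDDD11-8. SOX4 (chr6:21593982-21598850, plus strand) had downstream coverage of 66.6% and 36.3% with vehicle and 0% in both CDDD11-8 libraries. Its gene coverage was 79.4% and 96.3% with vehicle and 78.5% and 66.4% with CDDD11-8, and the nearest values of the groups almost touched. Upstream coverage went the other way for SOX12, at 53.1% and 57.9% with vehicle and 91.2% and 77.9% with CDDD11-8.

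The shorter genes SDHAF1 and UTP3 were also lower after the TES. UTP3, a factor of the small ribosomal subunit processome, had downstream coverage of 68.14% and 57.02% with vehicle and 25.4% and 13.7% with CDDD11-8, while its gene coverage was 92.0% and 52.0% against 100% and 100%. SDHAF1, an assembly factor of succinate dehydrogenase, was fully covered over its 1125 bp and had downstream values of 100% and 95.5% against 38.2% and 40.5%. Before its TSS, SDHAF1 had 11.8% and 22.3% covered with vehicle and 47.4% and 39.3% with CDDD11-8. UTP3 had a fuller gene and an emptier 3′ flank.

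A further 3 long genes stood beside ITPRIPL2 with lower gene coverage. ATXN7L3B, a paralogue of the SAGA deubiquitinase subunit ATXN7L3, had 80.2% and 81.8% of its 7596 bp covered with vehicle and 38.5% and 43.4% with CDDD11-8. FEM1A, a substrate receptor of a cullin ubiquitin ligase and the longest of the 73 genes at 9540 bp, had 90.9% and 85.2% against 53.5% and 44.6%. HNRNPA0, an RNA-binding hnRNP protein, had 97.2% and 95.2% of 8713 bp covered with vehicle and 78.3% and 90.9% with CDDD11-8. Each had vehicle values that exceeded both CDDD11-8 values, and downstream coverage was at most 13.5% in any library.

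RHOB, a small GTPase of the immediate-early class, was the clearest exception after the TES. It lies at chr2:20646835-20649201 (plus strand) and was covered to 100% in all 4 libraries, with downstream coverage of 75.1% and 84.2% with vehicle and 100% and 100% with CDDD11-8. Its promoter peak was 8393 and 8934 bp wide with vehicle and 13108 and 10683 bp wide with CDDD11-8, ending 6124 and 6576 bp after the TSS against 10689 and 8310 bp. The peak percentile was between 84.4 and 98.1, among the highest of the single-exon genes. JUN, the AP-1 transcription factor (chr1:59246463-59249719, minus strand), had gene coverage of 92.5% and 72.2% with vehicle and 100% in both CDDD11-8 libraries. Its downstream coverage was 0% and 15.2% against 13.3% and 20.7%, which overlapped between treatments, and its upstream coverage was 39.3% and 55.7% against 83.6% and 71.1%.

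IER5 resembled JUN in the gene and had nothing after it. This gene, a regulator of growth factor and heat shock responses, had gene coverage of 43.2% and 60.0% with vehicle and 77.0% and 69.2% with CDDD11-8. Downstream coverage was 0% in every library. The list of immediate-early genes was chosen with earlier results of these data known, and its members are no independent evidence of a direction.

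The C/EBP factors, basic leucine zipper regulators of differentiation, were full in the gene and lower after it. CEBPA was covered to 100%, 100%, 100% and 97.7% in the 4 libraries, and CEBPB to 100% in each. Downstream coverage of CEBPA was 52.1% and 53.0% with vehicle and 42.0% and 36.2% with CDDD11-8. For CEBPB it was 68.0% and 66.1% against 59.7% and 20.8%, with the CDDD11-8 replicates far apart. CEBPA was also lower before the TSS, at 86.7% and 100% against 80.4% and 50.5%.

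EID2, an inhibitor of EP300-dependent differentiation, had the largest positive difference in gene coverage of the 73 genes. Over its 1455 bp at chr19:40029347-40030801 (minus strand), coverage was 32.4% and 41.9% with vehicle and 100% in both CDDD11-8 libraries, and its peak was 664 and 977 bp wide against 3346 and 2948 bp. Its neighbour EID2B, which begins 5854 bp after the EID2 TES, was 1 of the 7 genes with a promoter peak in both CDDD11-8 and neither vehicle library. UBQLN2, a ubiquitin shuttle to the proteasome, had gene coverage of 20.6% and 15.8% with vehicle and 58.4% and 44.2% with CDDD11-8. TRMT12, an enzyme of tRNA wybutosine synthesis, had 39.6% and 28.3% against 71.0% and 77.0%. All 3 genes also had wider peaks in both CDDD11-8 libraries.

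**Figure D3:**
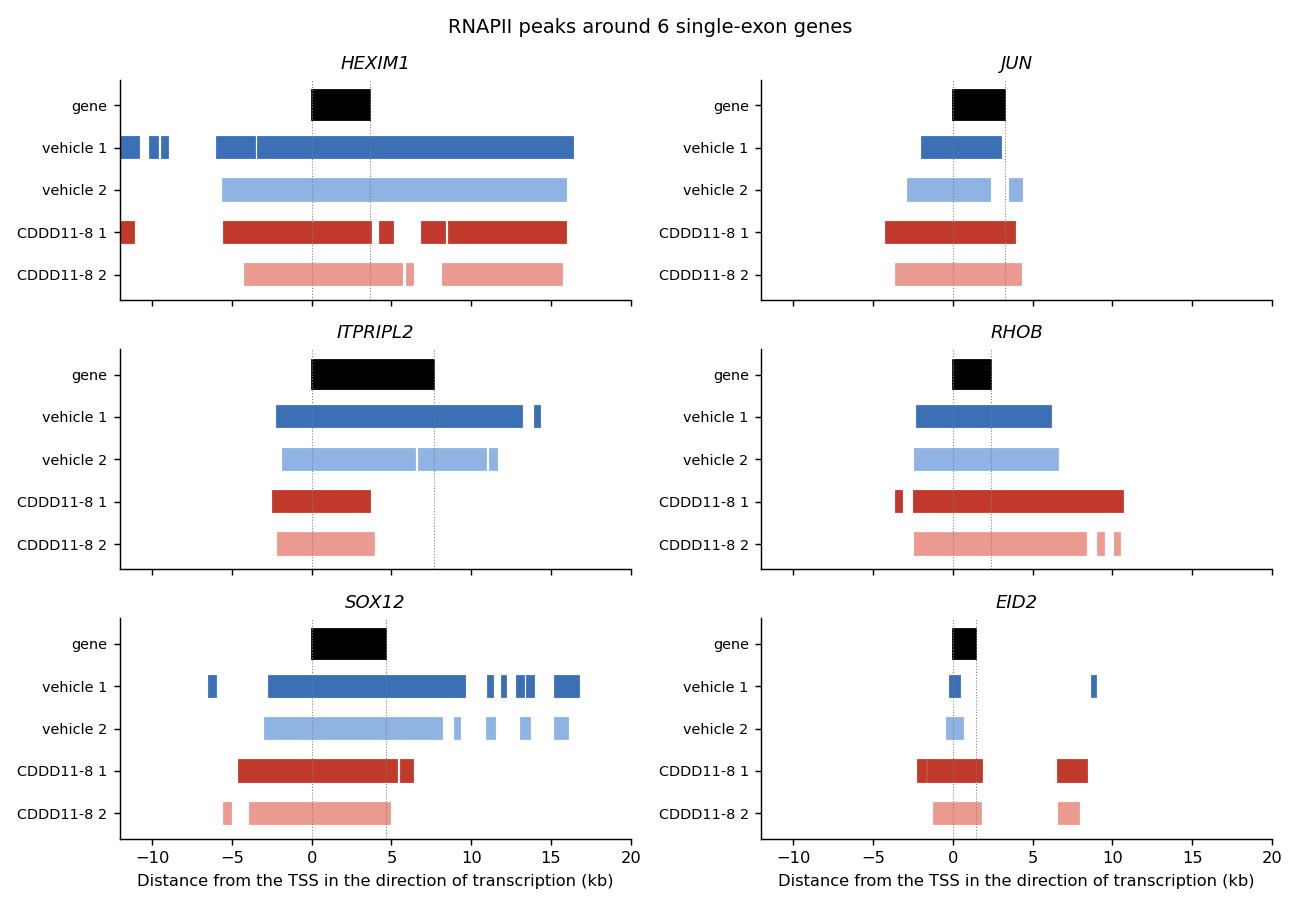
RNAPII peaks (coloured bars) in each of the 4 libraries around 6 single-exon genes (black bar), drawn by distance from the TSS in the direction of transcription (horizontal axis, kb), with dotted lines at the TSS and TES. In HEXIM1, ITPRIPL2 and SOX12 the vehicle peaks run past the TES and the CDDD11-8 peak ends earlier, whereas in JUN, RHOB and EID2 the CDDD11-8 promoter peak ends farther along than the vehicle promoter peak, although a separate peak of vehicle replicate 2 at JUN ends at 4329 bp, beyond both CDDD11-8 peaks.

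Among the nucleic acid binding genes, SF3B5, a small subunit of the SF3b splicing complex, had downstream coverage of 15.5% and 14.7% with vehicle and 34.0% and 16.8% with CDDD11-8, a difference that rested mostly on CDDD11-8 replicate 1. IRF2BP1, a corepressor partner of IRF2, had 42.7% and 43.0% against 44.04% and 47.64%. With RHOB and EID2, the latter at 0% and 0% against 6.9% and 6.0%, these were the 4 genes with higher values and no overlap after the TES. PURB, a purine-rich element binding protein, had 19.5% and 29.2% against 5.1% and 0%. PCBP1, a poly(C)-binding protein with a promoter peak percentile between 90.6 and 96.5, was covered to 100% in all libraries and overlapped after the TES, at 85.6% and 72.6% against 83.1% and 80.8%.

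The Wnt receptors carried short promoter peaks that left most of the gene bare. FZD1 had gene coverage of 16.6% and 21.8% with vehicle and 27.1% and 31.7% with CDDD11-8, FZD2 had 9.76% and 15.3% against 14.6% and 4.97%, FZD7 had 10.0% and 27.0% against 25.8% and 26.1%, and FZD8 had 29.5% and 31.9% against 30.1% and 29.1%. None of them had a covered base after the TES in any library. HCAR1, a receptor for lactate, differed from them with 100% and 85.6% of the gene covered with vehicle and 100% and 91.8% with CDDD11-8. Its downstream coverage was 71.6% and 20.4% with vehicle and 2.7% and 1.9% with CDDD11-8, and the vehicle replicates were far apart.

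The ubiquitin ligase adaptors and zinc finger genes differed among themselves. KLHL9 had gene coverage of 8.7% and 14.1% with vehicle and 19.98% and 22.94% with CDDD11-8, and KBTBD6 had 16.1% and 30.3% against 35.8% and 32.3%. KBTBD7, the paralogue of KBTBD6, went the other way with 39.6% and 49.6% against 31.6% and 36.2%. The X-linked zinc finger gene ZXDB had 18.2% and 22.7% against 34.5% and 32.8%, while its close copy ZXDA overlapped at 7.4% and 32.1% against 31.3% and 23.1%. ZCCHC3, a zinc knuckle protein of nucleic acid sensing, was nearly full in every library, at 88.2% or above. FOXD2 was covered to at most 11.4%, since its promoter peaks ended within about 300 bp of the annotated TSS.

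The small GTPase RAP2B had gene coverage of 16.7% and 33.0% with vehicle and 31.8% and 32.6% with CDDD11-8, which overlapped. RAB6C had 81.7% and 90.7% against 100% and 100%. Of the MAGE family genes, MAGEH1 had gene coverage of 36.9% and 57.4% with vehicle and 60.8% and 71.9% with CDDD11-8. MAGEF1 was fully covered and had downstream values of 66.7% and 48.0% against 25.3% and 34.7%.

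Promoter peaks confined to 1 treatment were few. A promoter peak in both CDDD11-8 and neither vehicle library was found at 7 of the 632 genes (1.11%), against 1.22% of 9441 genes at least 3 kb from others, and the reverse at 3 (0.475%), against 0.381%. In multi-exon genes of similar length the shares were 2.53% and 0.0633%, so that the single-exon shares lay near the background of all genes but not near these. SOWAHD, an ankyrin repeat protein gene, had gene coverage of 0% and 0% with vehicle and 100% and 86.6% with CDDD11-8, and downstream coverage of 50.5% and 19.8% with CDDD11-8. ADRA2A, the alpha-2A adrenergic receptor, was at 0% with vehicle and at 17.2% and 38.4% with CDDD11-8. RIMBP3 and RIMBP3B, near-identical genes expressed in testis, were at 0% and 14.4% and at 0% and 5.5% with vehicle, and at 39.5% and 37.3% and at 30.3% and 30.1% with CDDD11-8. EID2B was at 15.1% and 0% against 59.1% and 32.5%. The remaining 2 were NAP1L2 and USP27X, named after their values were seen. Their peak percentiles show how weak these peaks were, with SOWAHD at 8.8 and 5.3 and ADRA2A at 3.8 and 5.8.

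The 3 genes with a promoter peak in vehicle alone were P2RY1, GAS1 and SLC10A5. P2RY1, an ADP receptor, had peaks of 546 and 626 bp that covered 1.9% and 2.2% of the gene. GAS1, a hedgehog co-receptor, had 0.3% and 43.8% of the gene covered. SLC10A5, a solute carrier, was covered to 49.2% and 36.6% and lay inside broader enrichment, with 100% and 95.5% of the 5 kb before its TSS covered with vehicle and 0% in both CDDD11-8 libraries. All 3 genes were listed at 0% gene coverage in both CDDD11-8 libraries.

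Some of these genes have near-identical copies elsewhere in the genome, between which short reads cannot always be told apart, and their values are uncertain. HSPA1B, an inducible heat shock protein 70 gene next to its copy HSPA1A, lay in a peak of 36299, 36853, 36112 and 26468 bp in the 4 libraries and was covered to 100% both in the gene and after it. RTL8A, RTL8B and RTL8C, retrotransposon-derived genes of the X chromosome and named after their values were seen, were covered to 100% in each library and were lower after the TES in both CDDD11-8 libraries, with RTL8C at 71.8% and 75.2% against 36.7% and 40.7%. RAB6C, RIMBP3, RIMBP3B, ZXDA and ZXDB belong to the same class. The part of shared reads in these values was not tested.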

How the data were processed

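RNAPII ChIP-seq was analysed in 4 libraries, and the 4 input libraries were not used as such. The authors used Bowtie 2 for alignment (GRCh37) and MACS2 for peak calling, library by library against the paired input and without pooling replicates. The deposited lists give each peak's position, fold enrichment (a ratio over the local background), -log10 p-value and -log10 q-value. No columns of the authors' own comparisons were used. The lists hold no read totals, so the exact depth per sample is unknown and no counting interval on reads can be given.

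Coverage, promoter peaks and widths were computed from peak positions with Python 3.11.15, numpy 2.4.6, pandas 2.3.3 and scipy 1.17.1, and figures with matplotlib 3.10.9. The scripts were tested on simulated data. Gene models came from GENCODE release 44 in GRCh37 coordinates and sequences from the GRCh37 genome. Each single-exon gene was set beside its 5 nearest multi-exon genes in log length, drawn from those with promoter peaks in all 4 libraries where occupied genes were compared. Libraries were grouped by the labels, and replicates were separate passages of 1 cell line. The members and lists were chosen with earlier results of these data known. Genes were named by a rule: up to 4 occupied genes per list and the 5 over all members with the highest mean percentile of promoter peak fold enrichment, the 5 with the largest lower and 5 with the largest higher downstream coverage and 3 each for gene coverage, ranked by the smaller change of the same-numbered pairs, and up to 5 with a promoter peak in 1 treatment alone, by summed peak width. FZD2 and the genes said to be so were named after their values were seen. Alternatives covered peak significance, list size, joining of peaks, promoter windows, transcript choice, distance to other genes, length and left-out libraries. Joining for the peak end, gene sets nearest in peak percentile and the length classes were chosen after seeing the data. 1 gene of the naming rule is not reported here.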

Additional observations from a re-analysis of the deposited data

How the results depend on the processing

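The downstream coverage difference kept its sign in all 17 alternatives (-13.8 to -1.40 percentage points), as did upstream coverage (1.54 to 15.5) and gene coverage (1.13 to 7.50), but with 2 libraries per treatment none could pass a test. Joining peaks closer than 1 kb gave -54.5 bp for promoter peak width, -307 bp for its downstream end and 0 points for peaks past the TES; the joined peaks close the gaps that vehicle peaks had. Over all 632 genes, the treatment effect in single-exon minus multi-exon genes was -1.24 points for gene coverage and -0.571 for downstream coverage, and for promoter peak share it was 0.128 points in genes of at least 1 kb; the cause was not tested. Gene coverage of genes from 4 to 10 kb was -1.05 points, against 1.51 with equal peak numbers, 11.6 at 3 kb from any annotated gene and, with single libraries left out, -4.25 to 2.14, with 2.14 without vehicle replicate 2 and 0.242 without CDDD11-8 replicate 2. At 3 kb from any annotated gene, where 35 genes remained, 10 had higher and 2 lower gene coverage and 10 lower downstream coverage. Higher downstream coverage was counted at 7 genes with -log10 q of at least 5, 9 with equal peak numbers and 9 over all 632. Leaving out 1 library gave 23 to 35 genes with higher and 8 to 15 with lower gene coverage, and 5 to 7 with higher and 21 to 32 with lower downstream coverage. Fewer values must then lie apart, so these counts could hardly fall and do not test stability. With the replicate block, downstream coverage was -11.4 points (exact sign-flip permutation p = 0.5, the smallest possible). Same-numbered libraries did not deviate together (Pearson r over 3526 genes -0.0689 for gene and -0.0529 for downstream coverage), so no reported test was paired, although the rule for named genes ranked by same-numbered pairs.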
